A study of Mus musculus with 119 samples.

Results

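The response of mouse bone marrow-derived macrophages (BMDMs) to 1 h of LPS was measured by RNA-seq while the kinases MKK1/2 (MEK) were inhibited with PD0325901. The libraries were taken by their labels: 6 libraries of cells pre-treated with 0.1 µM PD0325901 for 10 min and then given 100 ng/ml LPS for 1 h, and 3 libraries of cells that had the inhibitor for 70 min and no LPS. These 9 libraries are part of 119 in the series. All were of WT cells of the strain C57BL/6(NIMR), grown from femur bone marrow for 7 days in L-cell conditioned medium, and the inhibitor was in the medium for an equal time in both groups. Groups used beside them were the same cells after 10 min of the solvent DMSO (3 libraries), after 10 or 40 min of PD0325901 (3 libraries each), after PD0325901 and 0.5 h of LPS (6 libraries), and WT cells without any inhibitor, unstimulated or after 1 h of LPS (6 libraries each). The untreated cells came from a different experiment in the labels than the inhibitor-treated cells, so that the inhibitor and the experiment cannot be told apart in any comparison between them. The labels do not say that the replicates of a group were separate cultures. P values measure only the spread between libraries within groups, pooled over all 119 libraries of the series.

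LPS, a component of the Gram-negative bacterial wall, binds TLR4 with its co-receptors CD14 and MD-2. The adaptors MyD88 and TRIF carry the signal to IKK and NF-kB, to the MAP kinases p38, JNK, and ERK, and, from TRIF, to IRF3 and type I IFN. In macrophages, ERK1/2 are activated through TPL-2 (encoded by *Map3k8*), which phosphorylates MKK1/2, the kinases that PD0325901 blocks. The comparison therefore asks which mRNAs still changed with LPS while this branch was inhibited. ERK activity itself is not measured in these data.

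The values are deposited on a log2 scale, already normalized across libraries, and a difference of 1 was read as 2-fold. No source used here names the transformation, which may have drawn the differences together, so that log2 fold changes may be understated, and depth per library is unknown. All 11 macrophage markers in the file (among them *Adgre1*, *Csf1r*, *Cd68*, and *Lyz2*) reached a linear value of 10 in every library used. Their summed linear values ranged from 450014 to 484613 without LPS and from 476218 to 515112 with LPS. Neutrophil markers summed to 1158 to 1279 without and 1154 to 1448 with LPS, and in untreated cells to 593 to 1051 and 594 to 1167; their part in the differences below was not tested. Fibroblast and stromal markers summed to 38.8 to 41.1 and 36.9 to 53.5, lymphocyte markers to 24.1 to 25.5 and 20.7 to 26.2, and erythroid, mast cell, and basophil markers to at most 3.69. In the controls, the highest means (log2) were those of *Mmp8* (9.69), *S100a9* (7.01), and *S100a8* (6.28) among the neutrophil markers, of *Lck* (3.56) among the lymphocyte markers, and of *Acta2* (3.51) and *Pdgfrb* (3.36) among the stromal markers, and *Elane*, *Ctsg*, *Cd3e*, and *Lum* were at most at -0.10.

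The control libraries, together with those of 40 min of PD0325901, differed from the other inhibitor-treated libraries in a set of genes that macrophages are not known for. *Fabp7*, a fatty acid-binding protein gene of radial glia, was at 8.20, 7.57, and 7.54 in the 3 libraries with 70 min of PD0325901, against 2.70 to 3.13 after 10 min of it and 2.92 to 3.28 with LPS. *Mir6236*, annotated as a microRNA gene, was at 8.68, 8.94, and 9.44 in the controls and at 2.47 to 2.78 with LPS. *Igfbp2*, which encodes an insulin-like growth factor-binding protein, was at 3.31, 3.56, and 7.63 in the controls and at 0.55 to 0.60 with LPS. *Sparcl1* (8.07, 3.52, and 3.13) and *Olig1* (6.70, 3.39, and 3.18), both best known from cells of the nervous system, were above 3 in each control library and below 1 in each library with LPS. The same genes were high in the 40 min inhibitor libraries and low in the libraries with 10 min of DMSO or PD0325901. Between 70 and 10 min of inhibitor, 29 genes were called higher and 12 lower (0.242% and 0.100% of the 11971 genes tested). Of the 12 genes in the list of glial markers, 4 reached a linear value of 10 in every control library, and the summed value ran from 1614 to 1713 in the controls and from 1154 to 1223 with LPS, most of it from *Mbp* (means 10.4 and 10.1). *Sox10* (mean -2.3) and *Gfap* (mean -1.9) were near the lowest values of the file in the controls, whereas *Ncam1* (mean 2.56, against 1.03 after 10 min and 1.13 with LPS) and *S100b* (1.29, against 0.26 and 0.27) were low but higher there. In bulk libraries, fewer cells of a type and less RNA per cell cannot be told apart, and the part of other cells in these values was not tested. The main counts are therefore also given against the 10 min PD0325901 and the 10 min DMSO libraries, and list members that were not called with each of the 3 controls are named.

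**Figure D1:**
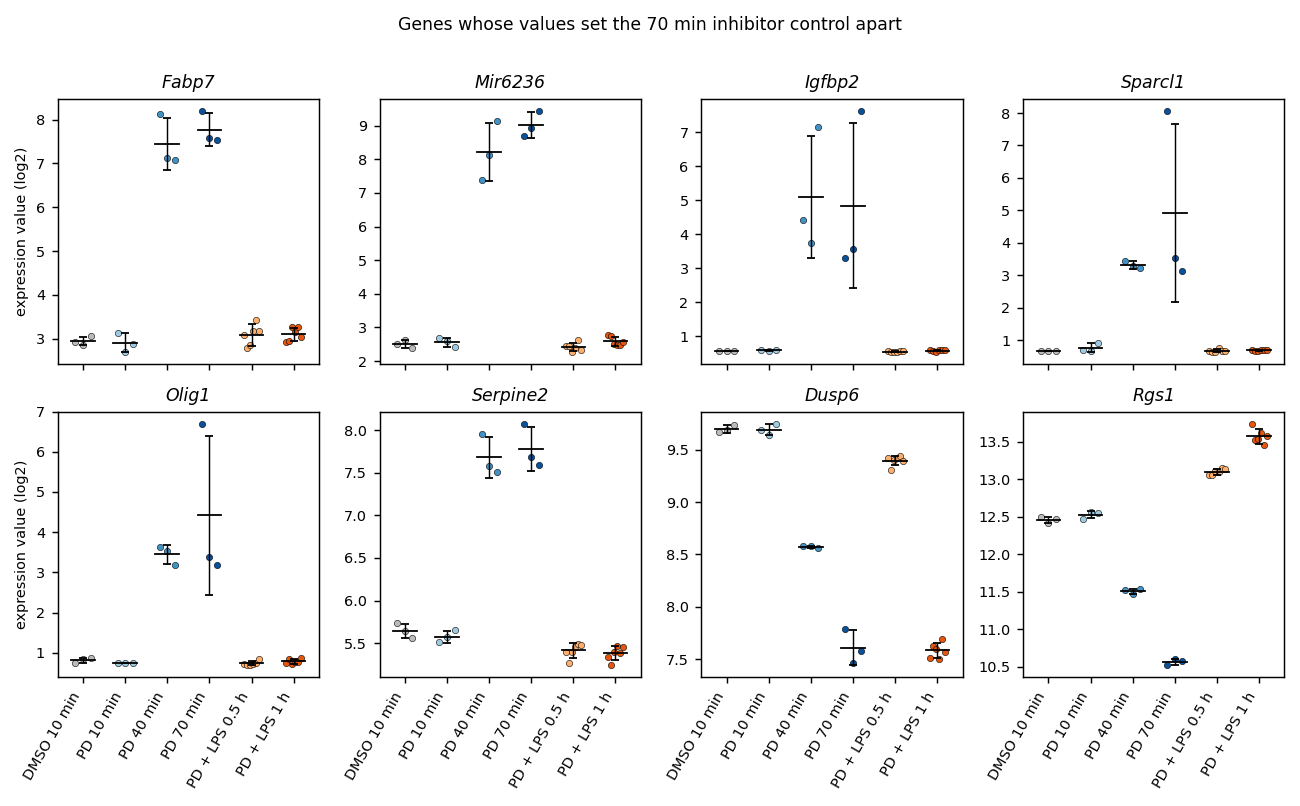
Expression values (log2) of 8 genes in each library of the inhibitor experiment; points are libraries, horizontal lines are means, and bars are SD. *Fabp7*, *Mir6236*, *Igfbp2*, *Sparcl1*, *Olig1*, and *Serpine2* are high only in the 40 and 70 min inhibitor groups among the 6 groups drawn, and *Dusp6* and *Rgs1* are lower there than after 10 min.

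The resting level of several signal-induced genes was also lower after 70 than after 10 min of the inhibitor. DMSO was sampled at 10 min only. The inhibitor, the time, and whatever else sets the 70 min libraries apart therefore cannot be told apart here. *Dusp6*, an ERK-specific phosphatase whose gene is a common readout of ERK signalling, was at 9.64 to 9.75 after 10 min of PD0325901 and at 7.79, 7.46, and 7.58 after 70 min. *Rgs1*, a regulator of G protein signalling, was at 12.47 to 12.56 after 10 min and at 10.52, 10.60, and 10.58 after 70 min. *Myc* (8.17, 8.01, and 7.86 after 70 min, against 9.70 to 9.77), *Fos* (9.14, 9.15, and 9.07, against 10.72 to 10.77), *Ccl2* (10.30, 10.36, and 10.37, against 11.60 to 11.68), and *Ccl7* (8.79, 8.80, and 8.88, against 10.15 to 10.22) were among the 12 genes that fell. A response measured against the 70 min control is therefore higher, or less negative, than against the 10 min control, as for *Ccl7* (3.80 and 2.45) and *Dusp6* (-0.03 and -2.11).

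With LPS for 1 h under PD0325901, 358 genes rose and 163 fell, 2.99% and 1.36% of the 11971 genes tested (limma, called where adjusted p was under 0.05 and the log2 fold change 1 or more in size). The median log2 fold change over all genes tested was -0.001. The 6 libraries with LPS and the 3 controls did not overlap in any of the 358 genes or in 162 of the 163, and they did not overlap in 49.1% of all genes tested. Of the genes that rose, 135 had a log2 fold change of at least 2, 44 of at least 3, and 15 of at least 4, with a median of 1.70 over the 358. Against 10 min of PD0325901 the counts were 362 and 164 (3.02% and 1.37% of genes tested), of which 327 and 107 were among the genes called against the 70 min control, and against DMSO they were 366 and 160 (3.06% and 1.34%), with 331 and 110 shared. With each of the 3 controls, 324 of the 358 genes were called higher, and 58 of the 163 decreases were not called with each.

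The largest increase was in *Ifnb1* (chromosome 4 from 88522025 to 88522794, mm10), which encodes IFN-β. Without LPS it was at 4.84, 4.83, and 4.99, and with LPS its lowest, median, and highest values were 10.82, 11.09, and 12.80. The log2 fold change was 6.69 (SE 0.30, adjusted p = 1.71e-37), with 6.84 against the 10 min inhibitor control. LPS replicates 1 (12.80) and 4 (12.65) stood above the other four, which lay between 10.82 and 11.09, and all 6 were above the controls.

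The other genes with the largest increases encode cytokines, chemokines, and enzymes of the early inflammatory response. *Il1b* (chromosome 2 from 129364569 to 129371164), the gene of IL-1β, was at 8.74, 8.73, and 8.76 without LPS and at 13.86, 14.04, and 14.08 (lowest, median, highest) with it, a rise of 5.26 on the log2 scale (SE 0.17, adjusted p = 3.11e-50). *Cxcl2* (chromosome 5 from 90903899 to 90905938) and *Cxcl1* (chromosome 5 from 90891245 to 90893121), neighbouring genes for neutrophil-attracting chemokines, rose by 5.24 (SE 0.10) and 4.97 (SE 0.13). *Cxcl2* went from 9.61, 9.66, and 9.59 to between 14.80 and 14.94. *Tnf* (chromosome 17 from 35199367 to 35202007) was already high at 11.35, 11.38, and 11.35 and reached 15.97, 16.05, and 16.08, a rise of 4.68 (SE 0.10, adjusted p = 2.47e-65). *Ptgs2*, the inducible cyclooxygenase of prostaglandin synthesis, rose by 5.09 (SE 0.20) from 7.06, 7.05, and 7.16. *Tnfsf9*, the ligand of 4-1BB, rose by 5.22 (SE 0.13), and *Il12b*, the p40 subunit of IL-12 and IL-23, by 4.69 (SE 0.27). *Irg1*, which makes itaconate in mitochondria, rose by 4.81 (SE 0.21), *Socs3*, a feedback inhibitor of cytokine receptors, by 4.81 (SE 0.12), and *Il1a* by 4.71 (SE 0.18). *Nfkbiz* (4.64) and *Gem* (4.44) were also among the 14 largest. The 14 were chosen among genes whose 2 groups did not overlap, which held for 49.1% of all genes tested.

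**Figure D2:**
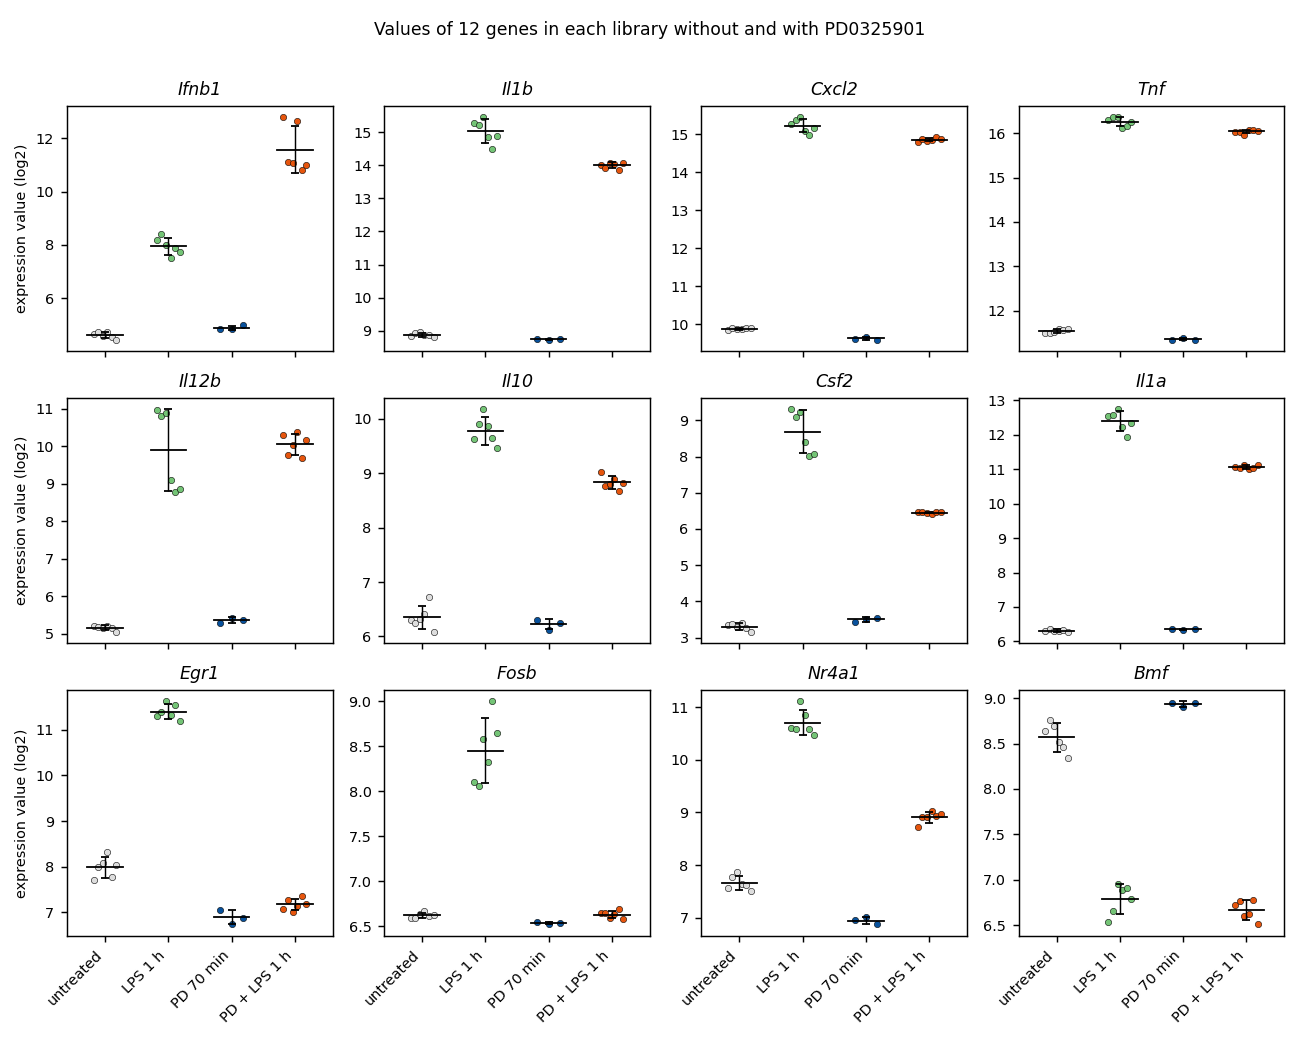
Expression values (log2) of 12 genes in untreated WT cells without and with 1 h of LPS and in PD0325901-treated cells without (70 min) and with 1 h of LPS; points are libraries, lines are means, and bars are SD. With LPS, all *Ifnb1* values are higher under the inhibitor, *Csf2*, *Il1a*, and *Nr4a1* values are lower, *Il12b* values overlap, and *Egr1* and *Fosb* stay near the level without LPS.

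Promoters of the named genes with the largest changes that held a match to one of 5 searched motifs are shown, because genes that rise together can be read beside their start sites. Each is the 250 bases before the start in the RefSeq table of GRCm38.p6, 5′ to 3′ on the gene's strand, with matches in capitals. The matches are to kappa B letters (GGG and TTTCC with any 2 bases between them) in *Cxcl2* (chr5:90903649-90903898, plus strand) and *Cxcl1* (chr5:90890995-90891244, plus strand), and to kappa B and TGANTCA (AP-1) in *Tnfaip3* (chr10:19015411-19015660, minus strand).
Cxcl2: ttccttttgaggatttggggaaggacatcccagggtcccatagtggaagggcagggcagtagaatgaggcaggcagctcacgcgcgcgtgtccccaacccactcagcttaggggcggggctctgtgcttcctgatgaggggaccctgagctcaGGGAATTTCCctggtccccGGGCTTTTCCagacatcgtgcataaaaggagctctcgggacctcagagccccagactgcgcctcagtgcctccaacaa
Cxcl1: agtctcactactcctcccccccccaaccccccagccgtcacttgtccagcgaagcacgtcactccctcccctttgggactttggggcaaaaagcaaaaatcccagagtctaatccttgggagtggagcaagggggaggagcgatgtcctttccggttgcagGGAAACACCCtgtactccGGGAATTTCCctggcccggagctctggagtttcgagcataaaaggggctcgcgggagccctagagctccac
Tnfaip3: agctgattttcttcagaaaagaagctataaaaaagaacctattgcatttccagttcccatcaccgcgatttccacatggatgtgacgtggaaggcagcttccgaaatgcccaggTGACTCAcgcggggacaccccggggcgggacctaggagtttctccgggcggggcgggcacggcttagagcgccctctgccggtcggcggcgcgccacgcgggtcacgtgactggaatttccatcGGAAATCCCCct
In *Cxcl2* the kappa B matches began 97 and 78 bases before the start, in *Cxcl1* 89 (on the other strand) and 71, and in *Tnfaip3* 12 (on the other strand).

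In windows of 300 bases, 250 before and 50 after each start, motifs were counted on both strands and a gene counted once if any of its promoters matched. The kappa B motif was in 6.86% of the 277 genes called higher that have a promoter in the table, and in 2.14% of the 9215 tested genes that have one. TGANTCA was in 11.2% and 6.32%, TGACGTCA (CRE) in 5.78% and 3.72%, the IFN-stimulated response element (ISRE; GAAA repeated after any 2 bases) in 6.86% and 3.92%, and the CArG box, the site of serum response factor, in 2.53% and 1.47%. These shares describe the letters in the windows and were not tested.

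The counts in the lists below stand beside 2.99% of all genes tested that rose and 1.36% that fell. Of the cytokine genes in a list of 35, 29 were tested and 21 rose, and none fell. The median log2 fold change of the 29 was 2.22, and 20 of the 21 also rose against the other 2 controls, the exception being *Hbegf* (1.43, and 0.85 against the 10 min control). The growth factors *Csf1* (2.44) and *Csf2* (2.95), the vasoconstrictor peptide gene *Edn1* (3.88), and *Il6* (2.35), *Il27* (2.19), and *Lif* (1.95) were among them. *Il10*, the gene of the main anti-inflammatory cytokine, was at 6.30, 6.12, and 6.25 without LPS and at 8.68, 8.81, and 9.03 with it, a rise of 2.61 (SE 0.24, adjusted p = 2.67e-17). *Tgfb1* (0.01) and *Il1rn*, the IL-1 receptor antagonist (0.89), were tested and did not pass. Of 21 chemokine genes, 19 were tested, 13 rose, and none fell, with a median of 2.41. *Ccl4* rose by 3.85, *Ccl2* by 3.85, and *Cxcl10*, a T cell-attracting chemokine, by 3.58. For *Ccl2* the increase was 2.55 against the 10 min control, whose level was higher.

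Most genes in a list of IkB proteins and NF-kB feedback genes rose. Of its 18 genes, 13 rose and none fell, with a median of 1.69. *Nfkbia*, which encodes IkBα, was at 11.47, 11.48, and 11.39 without LPS and at 14.68, 14.76, and 14.81 with it, a rise of 3.30 (SE 0.06, adjusted p = 3.24e-70). *Tnfaip3*, the gene of the deubiquitinase A20 whose promoter is printed above, rose by 4.08 (SE 0.11), from 11.34, 11.34, and 11.41 to between 15.42 and 15.47. *Nfkbie* rose by 2.79. Among the 5 NF-kB subunit genes, *Rel* (2.04), *Relb* (1.44), and *Nfkb2* (1.28) rose, and *Rela* (0.77) and *Nfkb1* (0.54) did not reach the threshold. The mRNA decay factors and Socs genes had 7 of 18 higher, with *Zc3h12c* at 3.53, *Zc3h12a* (Regnase-1) at 2.29, and *Cish* at 2.21, and *Zfp36l2* was lower by -1.25. *Socs1* (1.04) was not called against the 10 min control (0.98).

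The effector enzymes and surface molecules had 14 of 27 tested genes higher and none lower, with a median of 1.12. *Icam1*, an adhesion molecule, rose by 3.28. *Gch1* (1.12) was not called against the 10 min control (0.91). Of the survival and death genes, 13 of 27 rose, with *Bcl2a1d* at 3.33, *Nlrp3*, the inflammasome sensor, at 3.16, *Bcl2a1a* at 3.07, and *Cflar*, the inhibitor of caspase-8, at 2.82. *Bcl2a1a*, *Bcl2a1b*, and *Bcl2a1d* are near-identical copies, between which reads can be split. *Plk3* (1.02) was at 0.04 against the 10 min control and not called. Of the Toll-like receptors and adaptors, 3 of 26 rose: *Tlr2* (2.38), *Cd14* (1.24), and *Irak2* (1.00), beside 2.99% of all genes. The call of *Irak2*, at the threshold, was lost against each other control (0.89 against 10 min of PD0325901). Of the macrophage receptor genes 8 of 34 rose. None of the 39 ribosomal protein genes was called, and their median was 0.09.

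Genes of the ERK pathway and its feedback moved unevenly. Of 11 MAP kinase phosphatase genes, 7 rose and none fell, with a median of 1.42, led by *Dusp4* (3.31), *Dusp5* (2.73), *Dusp1* (2.53), and *Dusp2* (2.51). *Dusp6* was at 7.50 to 7.69 with LPS, within the range of its controls, with a log2 fold change of -0.03. Of the Sprouty, Spred, and Errfi1 feedback genes, 4 of 8 rose, *Errfi1* by 3.69, *Phlda1* by 2.92, *Spry1* by 1.59, and *Spred1* by 1.01, which was not called against either other control (0.69 and 0.64). Of 18 genes for the kinases of the TPL-2, MKK, ERK, and RSK chain, *Mapkapk2*, the p38 target kinase MK2, rose (1.14) and the other 17 were not called, a share near the 2.99% of all genes. *Map3k8* was at 9.27, 9.28, and 9.34 without LPS and at 9.45 to 9.60 with it, a difference of 0.25 (SE 0.08, adjusted p = 0.00671), under the threshold for size.

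Immediate early transcription factor genes, many of them targets of serum response factor and its ternary complex partners, were split. Of 17 tested Egr, Fos, Jun, and Nr4a family genes, 6 rose and none fell, with a median of 0.87. With each control 5 rose, since *Egr3* (1.84) was at 0.98 and 0.79 against the 10 min PD0325901 and DMSO controls, and *Atf3* (0.87) passed the threshold against these 2 (1.10 and 1.11) and not against the 70 min control. *Egr2* (2.44), *Jdp2* (2.36), *Junb* (2.12), and *Nr4a3* (2.02) rose most. *Egr1* was at 7.05, 6.74, and 6.88 without LPS and at 7.01, 7.15, and 7.36 with it, so that the groups overlapped, and its log2 fold change was 0.28 (SE 0.18, adjusted p = 0.203). Against the 10 min control it was -0.63 (adjusted p = 0.00211). *Fosb* was at 6.55, 6.52, and 6.53 without LPS and at 6.58 to 6.69 with it, a difference of 0.09 (SE 0.14, adjusted p = 0.637). *Fos* went from 9.14, 9.15, and 9.07 to between 10.02 and 10.25, a rise of 0.98 (SE 0.13, adjusted p = 3.16e-10), just under the threshold for size, and its sign changed against the 10 min control (-0.65). Of the list of ternary complex factors, Srf, and other serum response factor targets, *Ier3* (1.30) and *Srfbp1* (1.04) rose among 19 tested, beside 2.99% of all genes. The median was 0.23. Without control replicate 1, *Srfbp1* was at 0.99, under the threshold. Of the other induced transcription factor genes, 10 of 34 rose, among them *Maff* (3.29), *Kdm6b* (3.25), *Myc* (2.98), and *Ets2* (2.14), and *Cebpa* fell by 1.16, which was not called against the 10 min PD0325901 (-0.80) or DMSO (-0.83) controls.

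Of 32 tested IFN-stimulated genes, 4 rose and none fell, beside 2.99% of all genes that rose, and their median was 0.08. *Gbp5* rose by 1.85, *Oasl1* by 1.46, *Ifit1* by 1.45, and *Rsad2* by 1.11, with 0.93 and no call against the 10 min control. Of the 10 IFN regulatory factor genes tested, *Irf1* (2.36) and *Irf4* (2.33) rose.

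**Figure D3:**
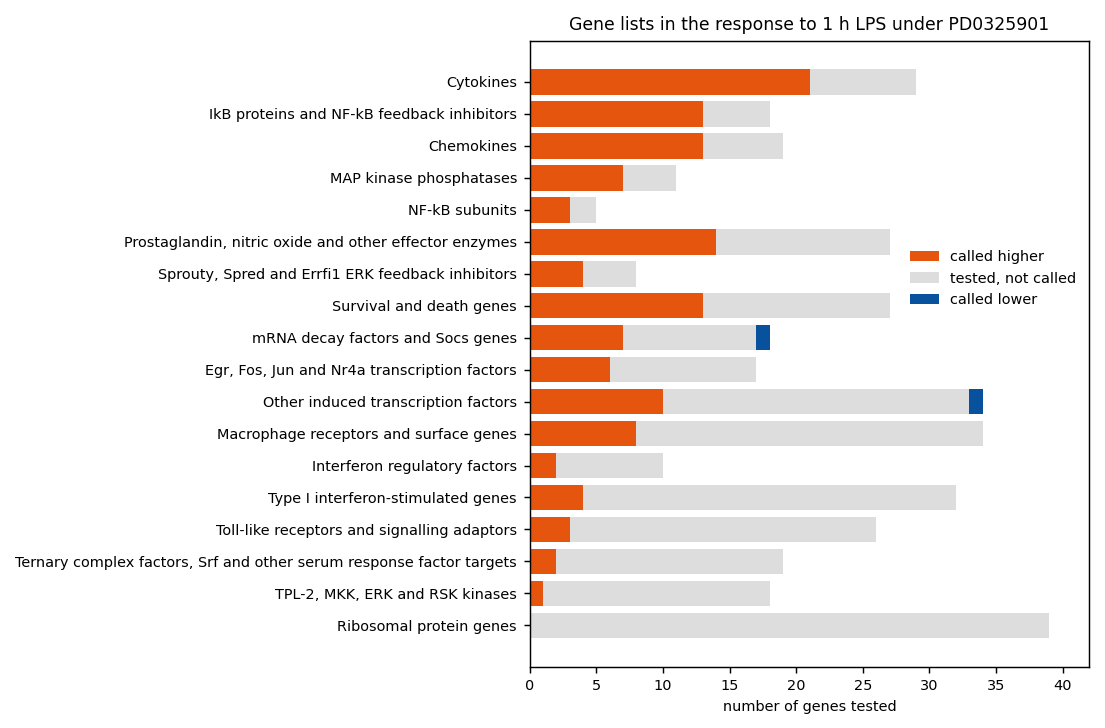
Numbers of genes tested in each of 18 gene lists that were called higher, not called, or called lower after 1 h of LPS under PD0325901. The cytokine list has 21 of 29 genes higher and the ribosomal protein list 0 of 39, beside 2.99% of all genes tested.

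The genes that fell included few with large changes once the controls were considered. Of the 163, 11 fell by at least 2 on the log2 scale, and 2 of these, *Bmf* and *Ier5l*, were also called lower against both other controls. *Bmf*, a pro-apoptotic BH3-only gene (chromosome 2 from 118528757 to 118549686), was at 8.95, 8.90, and 8.95 without LPS and at 6.51, 6.67, and 6.78 with it, a log2 difference of -2.26 (SE 0.11, adjusted p = 2.45e-36), and -1.83 against the 10 min control. *Ier5l* went from 7.49, 7.50, and 7.21 to between 4.97 and 5.35, a log2 difference of -2.23 (SE 0.11), and -1.69 against the 10 min control. *Txnip*, the thioredoxin-interacting protein gene (-1.99), *Arrdc3*, an α-arrestin gene (-1.89), and the muscle atrophy ubiquitin ligase gene *Fbxo32* (-1.77) were also lower with each of the 3 controls. *Mir6236* (-6.43), *Fabp7* (-4.67), *Igfbp2* (-4.25), *Sparcl1* (-4.23), *Olig1* (-3.63), and *Serpine2* (-2.41) had the most negative values among genes whose groups did not overlap. *Igfbp2*, *Sparcl1*, and *Olig1* reached the linear value of 10, which a gene needed in 3 or more libraries to be tested, only in libraries with 40 or 70 min of PD0325901 and no LPS, and *Mir6236* and *Fabp7* reached it in no library with 1 h of LPS under the inhibitor and in none of untreated cells, so that the values of these 5 are a description. Against the 10 min control the same 6 genes (*Mir6236*, *Fabp7*, *Igfbp2*, *Sparcl1*, *Olig1*, and *Serpine2* in this order) were at 0.03, 0.20, 0.00, -0.08, 0.04, and -0.20, and no difference was called. Without 1 control library, the values against the 70 min control were -2.85 for *Igfbp2* (without replicate 3) and -2.65 for *Sparcl1* and -2.50 for *Olig1* (without replicate 1). *Slc1a3* and *Gpm6b* had means (log2) of 4.01 and 4.52 in the controls and of 1.80 and 2.49 with LPS. Among the inhibitor groups their means reached the linear value of 10 only after 40 or 70 min without LPS. The 163 decreases and the 29 genes higher after 70 than after 10 min include such genes, whose calls are likewise a description. *Pira1* (-2.60, and 1.01 against the 10 min control) was the called gene whose groups overlapped.

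Whether the response differed from that of cells without inhibitor was tested as the difference of the 2 log2 fold changes, which share no library. In untreated WT cells, 1 h of LPS raised 380 genes and lowered 112 (3.17% and 0.936% of genes tested). Of the genes raised under PD0325901, 312 were among these, 87.2% of the 358 and 82.1% of the 380, and of those lowered 89, 54.6% of the 163 and 79.5% of the 112. Of these, 293 and 81 were called under PD0325901 with each control. No gene was called in opposite directions. Of the 380, 68 were not called under PD0325901, and for 9 of these the difference itself was called, 4 with each control. It was also called for 5 of the 46 genes that were called higher under PD0325901 and not in untreated cells, 2 with each control. These 2, *Ifna2* and *Ifna5*, entered the test only through libraries in which they were high, so that their calls are a description.

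**Figure D4:**
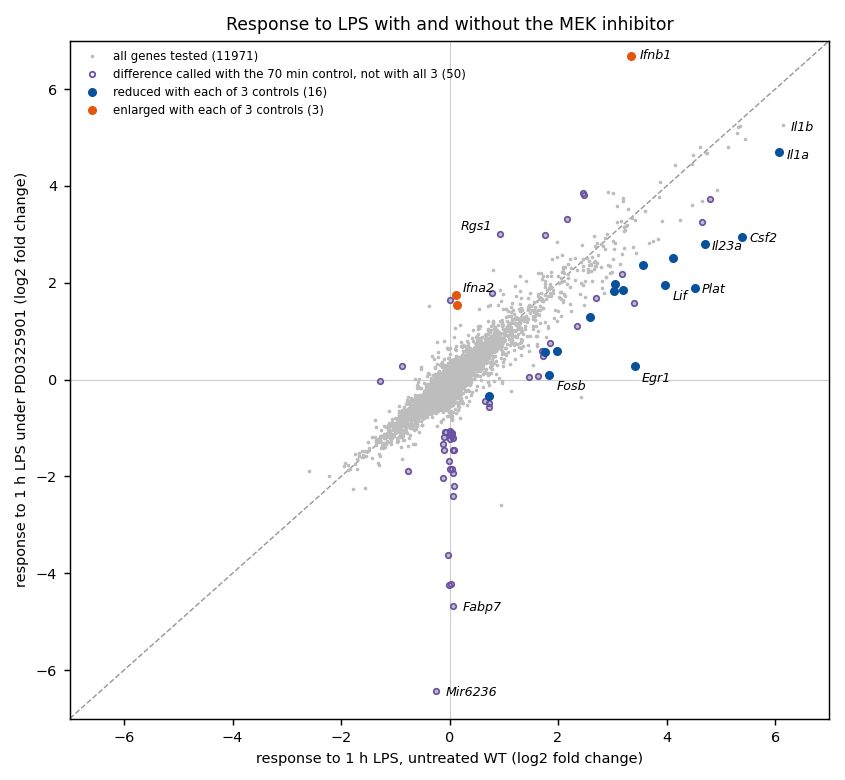
Log2 fold change with 1 h of LPS in untreated WT cells (horizontal) and under PD0325901 against the 70 min control (vertical), each point 1 of 11971 genes; the dashed line marks equal values. Filled points are the 16 genes reduced and the 3 enlarged with each of 3 controls, and the column of open points below 0 holds *Fabp7*, *Mir6236*, and other genes raised in the control libraries.

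The response under PD0325901 was smaller or more negative in 57 genes and larger or less negative in 12 (0.476% and 0.100% of genes tested). With the 10 min PD0325901 libraries as control the counts were 25 and 8 (0.209% and 0.0668%), with 16 and 3 shared, and with the DMSO libraries 26 and 6 (0.217% and 0.0501%), with 18 and 3 shared. With each of the 3 controls 16 genes had a smaller and 3 a larger response. Among the 3, *Ifna2* and *Ifna5* passed the filter only through libraries in which they were high, so that their differences are a description. Of the 16, 15 rose in untreated cells and 11 of these still rose under PD0325901.

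*Egr1* had the largest loss among them. It rose from between 7.70 and 8.33 to between 11.19 and 11.62 in untreated cells, a log2 fold change of 3.41, against 0.28 under PD0325901, and the difference was -3.13 (SE 0.23, adjusted p = 3.27e-21). *Fosb* (difference -1.74, SE 0.18), *Fosl1* (-1.19, SE 0.21), and *Egr3* (-1.19, SE 0.21) belong to the same immediate early families. *Nr4a1*, an orphan nuclear receptor gene, rose by 3.04 in untreated cells and by 1.97 under the inhibitor (6.95, 7.01, and 6.87 without LPS, 8.72 to 9.02 with it), a difference of -1.07 (SE 0.28, adjusted p = 0.0117). This call was lost with LPS replicates 4 to 6 alone (-1.01, adjusted p = 0.0766) and, by size, without untreated LPS replicate 6 (-0.99, adjusted p = 0.0299). *Arc*, a further immediate early gene, was called as well (-1.07), although it was not called in either response, with 0.73 in untreated and -0.34 in inhibitor-treated cells. This call was lost with untreated replicates 7 to 9 alone (-0.52, adjusted p = 0.206), with the replicate number as a block (adjusted p = 0.0866), and, by size, without untreated LPS replicate 4 (-0.99) or 6 (-0.96) or unstimulated replicate 4 (-0.99). *Fosl1* lost it, by size, with LPS replicates 4 to 6 alone (-0.96). *Arc*, *Fosl1*, and *Il1bos*, which is named below, had low values and did not pass the filter at a linear value of 50. *Fos* had a difference of 0.13 with the 70 min control and of -1.54 (adjusted p = 1.74e-11) with the DMSO control.

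*Csf2*, the gene of GM-CSF, was at 3.43, 3.52, and 3.55 without LPS and at 6.42 to 6.47 with it under PD0325901, and reached 8.03 to 9.31 in untreated cells, a difference of responses of -2.44 (SE 0.25, adjusted p = 4.24e-13). *Lif* (-2.02), *Il23a*, the p19 subunit of IL-23 (-1.91), *Il1a* (-1.37), and *Vcam1* (-1.35) rose in both and less under the inhibitor. *Plat*, the tissue plasminogen activator gene, had a difference of -2.63 with the 70 min control, in which its level was raised (5.58, 5.41, and 5.20, against 4.21 to 4.30 after 10 min), and of -1.48 with the 10 min control. *Dusp2* (-1.61), *Ier3* (-1.28), the fatty acid receptor gene *Gpr84* (-1.20), and *Il1bos* (-1.40), an antisense RNA at the *Il1b* locus, complete the 16. *Il1bos* overlaps *Il1b*, and the 2 can be told apart only by strand. The AP-1 letters TGANTCA were in the promoters of *Lif* (chr11:4257318-4257567, plus strand), beginning 228 bases before the start, and *Il1a*, 2 of the 9 of these genes in the promoter table. The *Il1a* window overlaps the annotated span of the gene and is not shown.
Lif: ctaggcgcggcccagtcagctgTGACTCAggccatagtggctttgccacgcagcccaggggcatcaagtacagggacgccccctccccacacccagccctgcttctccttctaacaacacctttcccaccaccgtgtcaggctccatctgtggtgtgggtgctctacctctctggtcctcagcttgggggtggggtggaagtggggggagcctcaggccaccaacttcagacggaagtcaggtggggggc
Neither the kappa B motif nor the CArG box was in the windows of these 9 genes, beside 2.14% and 1.47% of all tested genes with a promoter. With shares that low, no match in 9 genes cannot be read as an absence of such sites. The rest of the 16 had no window and were not searched.

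For several of the most strongly induced genes the difference did not pass the test. It was -0.04 (SE 0.13) for *Tnf*, -0.11 (SE 0.13) for *Cxcl2*, 0.15 (SE 0.13) for *Nfkbiz*, -0.12 (SE 0.08) for *Nfkbia*, and -0.05 (SE 0.34) for *Il12b*. For *Il1b* it was -0.89 (SE 0.22, adjusted p = 0.00417), under the threshold for size, and for *Il10* -0.82 (SE 0.31, adjusted p = 0.145). With the 10 min PD0325901 control the *Il10* difference was called (-1.09, adjusted p = 0.0243), and with the DMSO control it was not (-0.92, adjusted p = 0.0949). The untreated libraries with LPS fell into replicates 4 to 6 and 7 to 9 in some genes. *Il12b* was at 8.78 in the lowest and 10.97 in the highest of them, and *Csf2* at 8.03 and 9.31. With untreated replicates 4 to 6 alone, 75 genes had a negative and 13 a positive difference, and with replicates 7 to 9 alone 52 and 15. *Il1b* passed the size threshold with replicates 4 to 6 (-1.15).

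The 3 genes whose response was larger with each control were IFN genes. *Ifnb1* rose by 3.34 in untreated cells, from between 4.44 and 4.74 to between 7.51 and 8.40, and by 6.69 under PD0325901, and the difference was 3.35 (SE 0.39, adjusted p = 5.58e-11). No untreated library with LPS reached the lowest inhibitor-treated one. *Ifna2* was at 1.48, 1.51, and 1.52 without LPS and at 3.05, 3.17, and 3.57 with it under the inhibitor, a difference from untreated cells of 1.63 (SE 0.24). *Ifna5* was at most 1.53 in the controls and at 2.73, 2.97, and 3.40 with LPS, a difference of 1.41 (SE 0.21). In untreated cells with LPS, *Ifna2* lay between 1.42 and 1.66 and *Ifna5* between 1.43 and 1.84. Both were under the linear value of 10 in every control and untreated library and in most of the 6 with LPS, and entered the test only through libraries in which they were high, so that their differences are a description. The *Ifna* genes are close copies of one another on chromosome 4, so that reads can be split among them. The promoter of *Ifna2* (chr4:88683780-88684029, minus strand) held 2 ISRE matches, beginning 239 and 164 bases before the start.
Ifna2: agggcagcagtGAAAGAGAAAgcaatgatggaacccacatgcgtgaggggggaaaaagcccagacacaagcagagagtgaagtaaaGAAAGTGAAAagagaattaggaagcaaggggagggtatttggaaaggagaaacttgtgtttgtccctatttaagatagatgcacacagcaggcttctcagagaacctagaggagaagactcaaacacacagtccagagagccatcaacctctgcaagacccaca

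The other 9 genes with a larger or less negative response against the 70 min control were not called with both other controls. *Rgs1* rose by 3.01 against the 70 min control and by 1.04 against the 10 min control, beside 0.94 in untreated cells, and ended at 13.45 to 13.74 under the inhibitor and at 13.15 to 13.33 without it. *Ccl2* (difference 1.39 with the 70 min control) and *Ccl7* (1.33) had lower resting levels after 70 min and reached 14.11 to 14.28 and 12.46 to 12.77 with LPS, beside 13.87 to 14.21 and 12.70 to 12.98 in untreated cells. *Dusp6* fell by 1.28 in untreated cells and was not called under PD0325901 against the 70 min control (-0.03), where it was already at 7.46 to 7.79. Its difference was 1.25 with that control and -0.83 with the 10 min control. *Atp6v0c*, a subunit of the vacuolar proton pump, had a difference of 1.64, and its response against the 10 min control was 0.05. The remaining 4 were *Myc* (1.22), *Rgs2* (1.16), *Dusp4* (1.15), and *Rnd3* (1.00), named after their values were seen, with differences of -0.50, 0.08, 0.04, and 0.58 against the 10 min control.

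The change with time was tested against the response to 0.5 h of LPS under PD0325901, measured against its own 40 min inhibitor control. At 0.5 h, 70 genes had risen and 32 fallen (0.585% and 0.267% of genes tested), and 63 of the 70 also rose at 1 h. Between the 2 times, the response was larger or less negative in 267 genes and smaller or more negative in 109 (2.23% and 0.911%). *Ifnb1* was at 4.80 to 5.25 at 0.5 h, with a log2 fold change of 0.22, and the difference between the times was the largest of all genes called (6.47, adjusted p = 1.01e-24). *Il12b* (0.06 at 0.5 h, 4.69 at 1 h), *Irg1* (0.43 and 4.81), *Edn1* (0.26 and 3.88), the scavenger receptor gene *Olr1* (0.40 and 3.73), and the costimulatory receptor gene *Cd40* (-0.11 and 3.09) had the next largest differences. *Nfkbia* had risen by 3.22 at 0.5 h and by 3.30 at 1 h, and *Tnf* by 3.97 and 4.68.

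**Figure D5:**
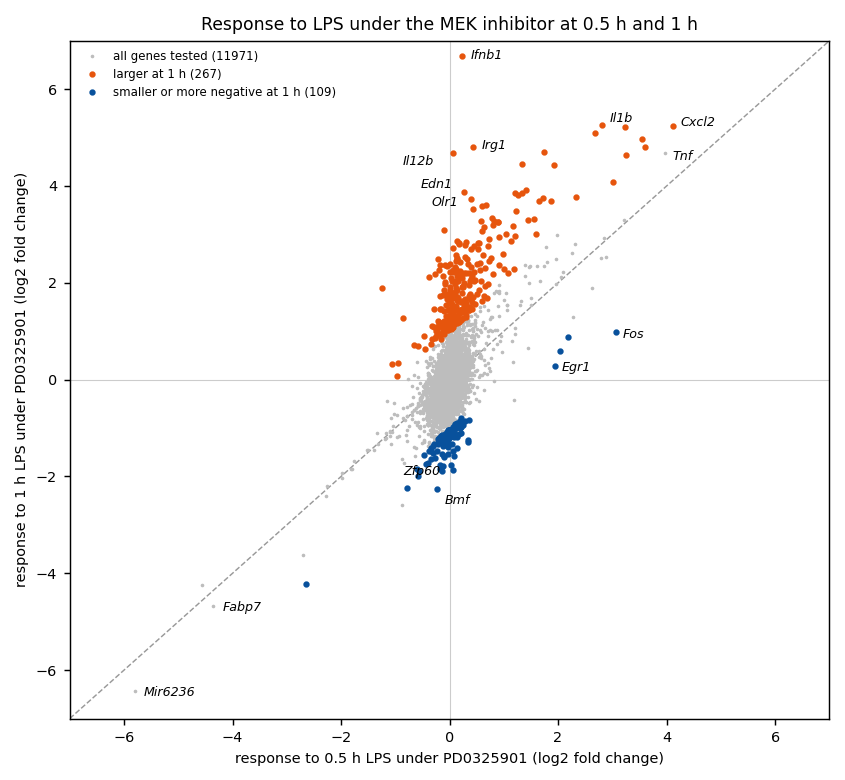
Log2 fold change with LPS under PD0325901 at 0.5 h (horizontal, against 40 min of inhibitor) and at 1 h (vertical, against 70 min of inhibitor), each point 1 of 11971 genes; the dashed line marks equal values. *Ifnb1*, *Il12b*, and *Irg1* lie near 0 at 0.5 h and above 4 at 1 h, *Fos* and *Egr1* lie below the line, and *Fabp7* and *Mir6236* are low at both times.

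Some genes called at 0.5 h were no longer called at 1 h. The 7 genes called higher at 0.5 h and not at 1 h were *Btg2*, *Egr1*, *Fos*, *Ier2*, *Jun*, *Sox7*, and *Zfp36l1*, named after their values were seen. *Zfp36l1* (0.95) and *Btg2* (0.89) were just under the threshold at 1 h, and *Zfp36l1* was above it against the 10 min control (1.19). *Fos* had risen by 3.06 at 0.5 h, to between 12.35 and 12.66, and by 0.98 at 1 h, a difference of -2.08 (adjusted p = 2.91e-17). *Egr1* had risen by 1.94 at 0.5 h, from between 6.70 and 7.04 to between 8.72 and 8.92, before the value of 0.28 at 1 h (difference -1.66, adjusted p = 3.79e-08). The response of *Nr4a1* was 1.95 at 0.5 h and 1.97 at 1 h. The genes with the most negative difference beside *Fos* were *Bmf* (-0.22 at 0.5 h and -2.26 at 1 h), the zinc finger gene *Zfp60* (0.07 and -1.86), *Fbxo32* (0.03 and -1.77), *Arrdc3* (-0.14 and -1.89), and *Zfp157* (-0.17 and -1.85).

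The 6 libraries with LPS were not alike in every gene. The SD between them had a median of 0.08 over the 358 genes that rose and of 0.06 over all genes tested, and exceeded 0.5 in 2 of the 358, *Ifnb1* (0.90) and *Amd2* (0.78). Replicates 1 and 4 were both above the other four in 139 of the 358 genes (38.8%), beside 1512 of the 11971 genes tested (12.6%). For replicates 2 and 5 the count was 20 (5.59%, beside 7.31% of genes tested) and for 3 and 6 it was 52 (14.5%, beside 10.9%). Each library was closest to the one numbered 3 apart, and with the pairs averaged, so that 3 values stood for the group, 357 genes were called higher and 162 lower.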

How the data were processed

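RNA-seq values of 119 BMDM libraries were used as deposited: the authors gave normalized log2 values, 1 for each gene and library. The submitters' processing notes name STAR 2.5.1b, RSEM 1.2.29, DESeq2 1.10.1, and the build mm10. The reads were single-end and strand-specific. Counts could not be recovered, so that library depths are not known, and precision is that of the replicate spread. A single value above 25 (*Fosb*, RSK inhibitor) was treated as missing. Groups came from the sample labels.

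Groups were compared with limma 3.58.1 (R 4.3.3), without a trend, in 1 fit over all libraries with a mean per group, for the 11971 of 18098 genes that reached 10 (linear) in 3 or more libraries. P values were adjusted by Benjamini and Hochberg over these genes. The fit was tested on simulated data. The genes named are those with the largest called changes (14 higher and 8 lower for LPS under the inhibitor, 8 and 8 for the difference from untreated cells, 6 and 6 for time), up to 4 called and 2 uncalled members of each list, and 9 fixed genes; others were named after their values were seen. The comparison, gene lists, and tests were chosen with earlier results of these data known. Comparing controls was added after the control values were seen. Positions are from RefSeq, GRCm38.p6. Some genes that these rules name are not reported here.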

Additional observations from a re-analysis of the deposited data

Results flagged for a closer look

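A single library lay apart from the other 5 of its group in 3 of 108 pairs of a named gene and a group, by the gap to its neighbour relative to the range (Dixon's test at the 95% level), which chance gives in about 1 of 20. These were *Nr4a1* in LPS replicate 1 under PD0325901 (8.72, next 8.91), *Olig1* in untreated unstimulated replicate 5 (0.97, next 0.76), and *Rgs1* in untreated LPS replicate 4 (13.15, next 13.27).

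The response to 1 h of LPS differed between PD0325901-treated and untreated cells, by a test of the difference, in 18 of the genes with the most positive or negative differences or fixed for naming. The difference was positive for *Ifnb1* (3.35), *Rgs1* (2.07), *Atp6v0c* (1.64), *Ifna2* (1.63), *Ifna5* (1.41), *Ccl2* (1.39), *Ccl7* (1.33), and *Dusp6* (1.25), which was at -1.28 in untreated and -0.03 in inhibitor-treated cells. With the 10 min control *Rgs1*, *Atp6v0c*, *Ccl2*, and *Ccl7* were not called, and *Dusp6* was at -0.83. The values of *Ifna2*, *Ifna5*, *Mir6236*, *Fabp7*, *Sparcl1*, *Igfbp2*, and *Olig1* are a description, since they passed the filter only through libraries in which they were high. The difference was negative for *Mir6236* (-6.19), *Fabp7* (-4.74), *Sparcl1* (-4.26), *Igfbp2* (-4.24), *Olig1* (-3.61), *Egr1* (-3.13), *Plat* (-2.63), *Serpine2* (-2.47), *Egr3* (-1.19), and *Nr4a1* (-1.07). With the 10 min control it was 0.27 for *Mir6236*, 0.13 for *Fabp7*, -0.11 for *Sparcl1*, 0.005 for *Igfbp2*, 0.06 for *Olig1*, and -0.26 for *Serpine2*, and none of these 6 was called.

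The response under PD0325901 differed between 1 and 0.5 h in 14 genes chosen in the same way. It was larger at 1 h for *Ifnb1* (6.47), *Il12b* (4.63), *Irg1* (4.37), *Edn1* (3.62), *Olr1* (3.33), *Cd40* (3.20), and *Il1b* (2.45). The difference was negative for *Fos* (-2.08), *Bmf* (-2.04), *Zfp60* (-1.94), *Fbxo32* (-1.80), *Arrdc3* (-1.75), *Zfp157* (-1.68), and *Egr1* (-1.66).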

How the results depend on the processing

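The 358 increases and 163 decreases became 618 and 562 at a 1.5-fold threshold and 2623 and 2602 by adjusted p alone. The decreases became 395 at a threshold of ln 2, and 58 of the 163 were not called with each of 3 controls. The positive and negative differences from untreated cells (12 and 57) became 30 and 137 at 1.5-fold, 25 and 110 at ln 2, 132 and 297 by adjusted p alone, 6 and 26 with the DMSO control, and 3 and 16 with each control. The negative differences were 92 without a filter, 32 with a filter at 50, and 25 with the 10 min PD0325901 control. The 267 and 109 differences between times became 486 and 411 at 1.5-fold, 403 and 291 at ln 2, and 1287 and 1475 by adjusted p alone. Leaving out 1 library at a time gave 349 to 359 and 163 to 172 for LPS under PD0325901, 11 to 14 and 51 to 61 for the difference from untreated cells, and 261 to 270 and 104 to 118 for time.

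Equal replicate numbers did not pair the LPS and control libraries (correlations of deviations -0.27, -0.03, and -0.13). With the replicate number as a block the counts were 354 and 168, 13 and 59, and 267 and 108.

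Of 1036 values of the genes named for the size of their change or fixed, under the other settings, 974 kept direction and call, 19 fell below the threshold, 17 passed it, and 26 changed sign. Against 10 min PD0325901 the response was 0.026 for *Mir6236*, 0.196 for *Fabp7*, 0.037 for *Olig1*, -0.647 for *Fos*, and -0.628 for *Egr1*, and against DMSO -0.687 for *Fos*, -0.644 for *Egr1*, 0.078 for *Mir6236*, 0.148 for *Fabp7*, 0.013 for *Igfbp2*, and 0.012 for *Sparcl1*. The difference from untreated cells was 0.269 for *Mir6236*, 0.126 for *Fabp7*, 0.005 for *Igfbp2*, 0.062 for *Olig1*, -0.029 for *Ccl7*, -0.830 for *Dusp6*, and -1.497 for *Fos* with 10 min PD0325901, and 0.321, 0.078, 0.019, and 0.000 for *Mir6236*, *Fabp7*, *Igfbp2*, and *Olig1*, -0.840 for *Dusp6*, and -1.537 for *Fos* with DMSO. With untreated replicates 7 to 9 it was 0.080 for *Tnf*, and with LPS replicates 1 to 3 the difference between times was -0.090 for *Nr4a1*. The cause was not tested. The depth of each library is unknown and could not be weighed.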

Other observations

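Of 375 tested genes whose symbols begin with Zfp, Zscan, Zkscan, or Zbtb, many of them KRAB-type transcriptional repressors, 54 fell and 5 rose after 1 h of LPS under PD0325901, beside 1.36% and 2.99% of all genes tested, and 48 of the 54 fell against each of the 3 controls. Their median log2 fold change was -0.46, beside -0.001 over all genes tested. In untreated cells 53 were lower. *Zfp60* (-1.86, and -1.87 in untreated cells) and *Zfp157* (-1.85 and -1.71) had the largest decreases among those named by rule. The family was chosen after its values were seen, and nothing was tested on it as a group.

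Of 11 *Ifna* genes in the file, 2 passed the filter on low values, and in 6 all libraries with LPS under PD0325901 lay above all controls, beside groups that did not overlap in 49.1% of all genes tested. *Ifna4* was at 1.13 to 1.15 without LPS and at 2.18 to 2.49 with it, beside 1.12 to 1.35 with LPS in untreated cells. *Ifna1* was at 0.88 to 0.90 and at 1.84 to 2.27, beside 0.86 to 1.03. Both are below the filter and were not tested.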
